A study of Caenorhabditis elegans with 12 samples.

Results

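The comparison described here is between cytoplasmic RNA of the mutant hrde-1(tm1200) and cytoplasmic RNA of the wild type strain N2 of Caenorhabditis elegans. It uses 4 of the 12 libraries of the study, 2 of each genotype, from young adult hermaphrodites kept at 23 C for 3 or 4 generations. Both genotypes had the same temperature, generations, stage and sex, and the mutant is known from the labels as 1 allele of hrde-1. The cytoplasmic fraction was the clear layer of a sucrose cushion through which the nuclei of ground worms had been spun. Its RNA was freed of ribosomal RNA with complementary oligonucleotides and RNase H, and poly(A) RNA was not selected. Coverage was deposited for 100257 genome windows of 1000 bases, and the 15310 windows (15.3%) with a mean of at least 10 over the 4 cytoplasmic libraries were compared. The 8 libraries of whole-animal and nuclear RNA from the same genotypes and generations served to show where the cytoplasmic difference was shared with the other fractions.

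HRDE-1 is an Argonaute protein of the germline that carries small interfering RNAs into the nucleus. There it directs transcriptional silencing and the methylation of histone H3 on lysine 9 at its targets, which include retrotransposons, and it is known for passing silencing from one generation to the next. An RNA that a nuclear pathway no longer silences can leave the nucleus, and the cytoplasmic fraction holds what has been exported or what leaks out when nuclei break. The table marks windows as GRTS or GRH. In this field GRTS is used for transcriptional silencing, and GRH for heterochromatin, that depends on nuclear RNAi of the germline. The labels do not say how the marked windows were picked. They may have been chosen with these libraries, so their direction is not independent evidence.

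The N2 cytoplasmic libraries stood apart from the other libraries in depth, and this touches every result below. The value of 1 read, taken from the steps between low values, was 4.58 in N2 of generation 3 and 3.15 in N2 of generation 4, against 1.87 and 2.30 in hrde-1. This gave 190872 and 263017 read equivalents in N2 and 520469 and 361431 in hrde-1, where the 8 other libraries held 486560 to 907885. A tested window held a median of 5 and 7 reads in N2 and of 16 and 11 in hrde-1. The value 0.1 is the floor of the table and stands for no reads. The residual SD on the log2 scale was 0.80 in N2 cytoplasm, against 0.36 to 0.49 in the other 5 groups.

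The make-up of the N2 cytoplasmic libraries differed as well. Windows of chromosome X held 18.3% and 15.6% of their coverage, 12.7% and 13.4% in hrde-1 cytoplasm, and 11.1% to 12.6% in the 8 whole and nuclear libraries. The 132 windows with a mean of at least 500 held 22.3% and 19.5% in N2 cytoplasm, 15.5% and 16.4% in hrde-1 cytoplasm, and 10.9% to 13.3% in the other libraries. For both shares the N2 cytoplasmic libraries were the highest of the 12, and hrde-1 cytoplasm lay nearer to whole RNA than N2 cytoplasm did. The sums of coverage were similar over the 12 libraries, so that a larger share in some windows leaves a smaller one in the rest. Whether the fractions were of equal purity was not checked with marker genes, since no annotation of the build of the table was used. In bulk samples, fewer cells of a type and less RNA per cell cannot be told apart.

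**Figure D1:**
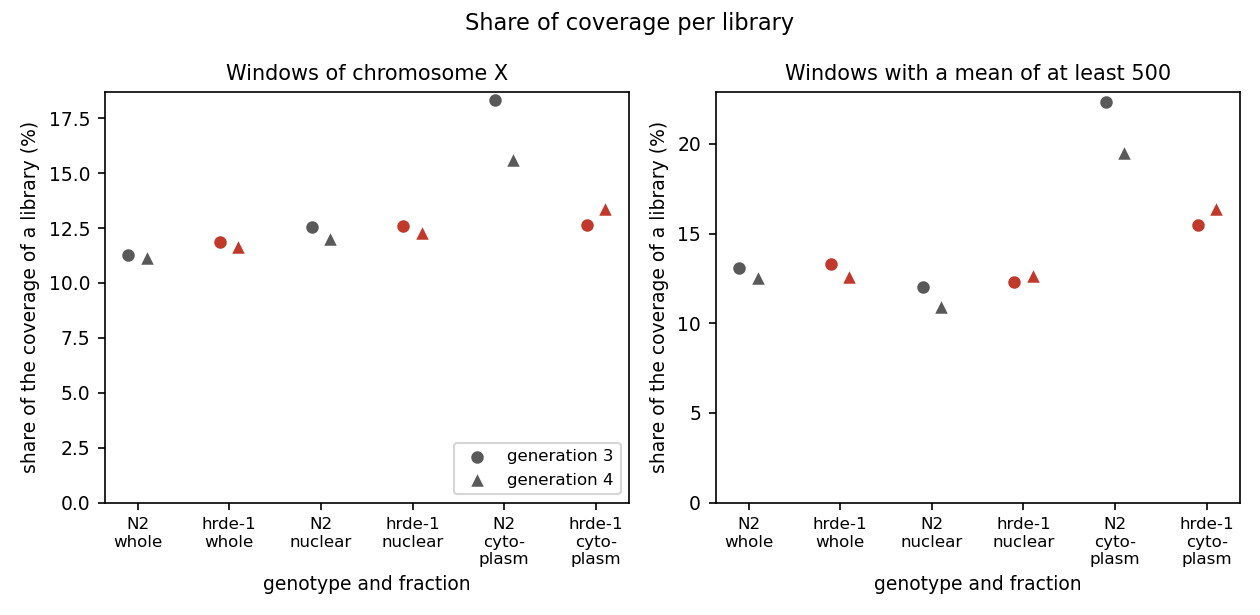
Share of the coverage of each of the 12 libraries (vertical axes, percent) in windows of chromosome X (left) and in the 132 tested windows with a mean of at least 500 (right), by genotype and fraction; circles are generation 3, triangles generation 4, grey N2 and red hrde-1. The N2 cytoplasmic libraries lie highest in both panels, at 18.3% and 15.6% on the left and at 22.3% and 19.5% on the right.

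In cytoplasmic RNA, 49 windows were higher in hrde-1 (0.32% of those tested) and 4 were lower (0.0261%), at an adjusted p under 0.05 in limma. Adjacent windows joined into 34 higher regions and 2 lower ones, and 25 of the higher regions were a single window. In all 53 called windows both hrde-1 libraries lay on the same side of both N2 libraries. Such separation was common, since it held in the higher direction for 33.8% of all tested windows and in the lower direction for 9.75%. The lowest adjusted p was 0.000974, and 1754 windows had an unadjusted p under 0.05. With 2 libraries against 2, an exact permutation test of a single window cannot go below p = 0.333, so each call rests on the spread that limma shares across windows and groups.

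The windows that rose went from almost no reads to moderate coverage. The mean of the 2 hrde-1 libraries ranged from 22.5 to 125.1 over the 49 windows, and the N2 mean was under 10 in 46 of them and at most 31.2. In 26 of the 49 both N2 libraries were at the floor. The 46 windows therefore passed the minimum mean only through hrde-1. In the 26 windows the equal N2 values added no spread to the fit. Their SE and p-values thus hold no counting error from their own N2 values, which favours a call. Where windows were chosen by their coverage in whole RNA, 38 of 16923 windows were higher (0.225%) and 2 were lower (0.0118%), and all 38 were among the 49. This minimum takes in the hrde-1 whole libraries, and windows such as those of region B below, at the floor in N2 whole RNA and at 54.4 and 52.9 in hrde-1, passed it through hrde-1 too, so the count is no separate support for the calls. Where windows were chosen by a mean of at least 10 in N2 cytoplasm, limma called 0 higher and 2 lower windows of 14345, with 1239 at an unadjusted p under 0.05. That minimum rests on N2 alone and favours windows with lower values in hrde-1, so this count is no separate support either.

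All differences are given on the scale log2(coverage + 1), as hrde-1 minus N2, which understates the change of windows with low values. The median difference over all tested windows was 0.30, with quartiles of -0.10 and 0.72. It was 0.43 within generation 3 and 0.12 within generation 4. Whole RNA had a median of -0.06 over the same windows, and nuclear RNA one of -0.10. The shift was thus larger in generation 3, in which N2 had the fewest reads. It was not the same for all windows. The median was 0.38 at a mean of 10 to 20, -0.00056 at 100 to 500 and -0.31 at 500 and above. Values of single windows are best read against the median of their coverage class, which also differed between X and the autosomes. With the median of every library set equal, 37 windows were higher and 5 lower.

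**Figure D2:**
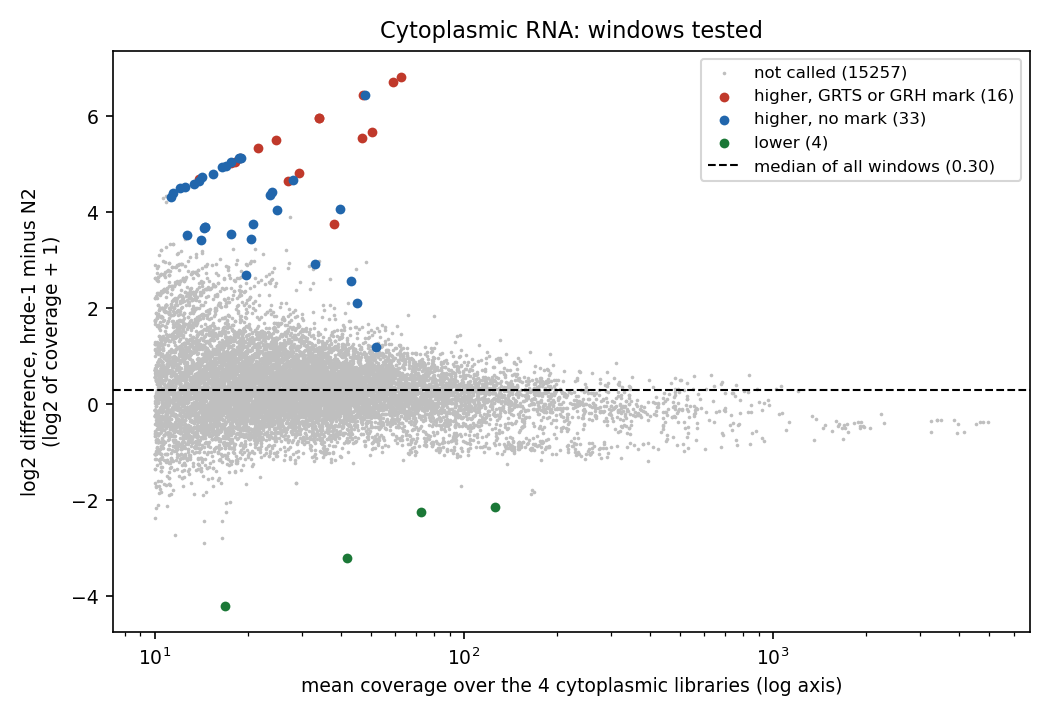
Each of the 15310 tested windows by its mean coverage over the 4 cytoplasmic libraries (horizontal, log axis) and its log2 difference, hrde-1 minus N2, of coverage + 1 (vertical); red windows are higher with a GRTS or GRH mark (16), blue ones higher with no mark (33), green ones lower (4), and the dashed line is the median of 0.30. The called higher windows lie at low mean coverage, and the 10 windows of highest coverage lie below the dashed line.

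GRTS windows had the largest share of called windows among the marked sets. Of 191 in the table, 16 passed the minimum mean, and 14 of these were higher and 0 lower. The mean over the 16 windows was 2.39 and 2.26 in N2 and 69.0 and 48.4 in hrde-1, for generations 3 and 4. Their median log2 difference was 5.23, beside 0.30 over all tested windows. The ratio of reads had a median log2 of 3.12 when windows with under 1 read in N2 were set to the bound that 3 reads over both N2 libraries allow. That bound applied to 14 of the 16 windows. The windows that passed did so mostly through hrde-1, and the count is a description of them and not of all GRTS windows. Nor were the 14 called windows separate places. They lay in regions A, B, C, D and K, described below, and in a single window of chromosome I. Regions C and D held 3 each with nearly equal values, so the same reads may count in both.

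The other GRTS windows had little coverage in either genotype. Of the 175 below the minimum mean, 51 were at the floor in all 4 cytoplasmic libraries and 154 were at the floor in both N2 libraries. Their mean was 0.231 and 0.371 in N2 and 3.15 and 2.50 in hrde-1. Over all 191 windows, GRTS took 0.00680% and 0.00990% of the coverage in N2 cytoplasm and 0.168% and 0.143% in hrde-1 cytoplasm. In whole RNA the share in hrde-1 was 0.232% and 0.238%, and in nuclear RNA 0.556% and 0.553%. The N2 shares were 0.0205% and 0.0184% for whole RNA, against 0.0409% and 0.0497% for nuclear RNA. In both genotypes and both generations the cytoplasmic share was the lowest of the 3 fractions and the nuclear share the highest.

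Both tested GRTS windows that were not called lay higher in hrde-1 as well. One, at chromosome II from 5098001 to 5099000, had 0.1 and 6.40 in N2 and 16.9 and 25.4 in hrde-1, with an adjusted p of 0.328 in limma. The other, at chromosome V from 16102001 to 16103000, was the only tested GRTS window with clear coverage in N2, at 27.6 and 28.4, and it had 39.4 and 34.6 in hrde-1. Its log2 difference of 0.39 was close to the median of all windows.

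The region with the largest gain, called region A here, was on chromosome II from 13245001 to 13250000. It held 4 called windows, of which 3 were marked GRTS and 3 GRH. Mean coverage over these windows was at the floor in both N2 libraries and was 86.8 and 69.2 in hrde-1, or 78.0 ± 12.5 (SD, n = 2). No N2 read fell in them, against 305.5 read equivalents in hrde-1, which is at least 52.5-fold higher when N2 is set to 3 reads over both libraries. The highest window, from 13246001 to 13247000, had 149 and 101 in hrde-1 and a log2 difference of 6.82 ± 1.05 (SE), with an adjusted p of 0.00395 in limma. A window inside the region, from 13248001 to 13249000, carried both marks and was at the floor in all 4 libraries.

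Region B, on chromosome V from 17569001 to 17572000, was 3 GRTS windows in a row. It too was at the floor in both N2 libraries, and it had 89.2 and 59.2 in hrde-1. With 220 read equivalents in hrde-1, it was at least 37.7-fold higher. Its middle window had the lowest adjusted p of the comparison, 0.000974 in limma, with a log2 difference of 6.72 ± 0.77 (SE). Regions A and B were called without any single one of the 12 libraries.

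Regions C and D, also on chromosome V, were runs of 3 GRTS windows at 8871001 to 8874000 and at 8829001 to 8832000. Each had 1.63 and 0.1 in N2 and 78.7 and 46.4 in hrde-1. Their means were equal within 0.01 in 9 of the 12 libraries, and the largest difference between them was 1.23. The N2 value was that of 0.5 read in each of 2 windows, so reads may have been split between like sequences, and whether 1 or both regions were the source is uncertain. Each had 1 read equivalent in N2 and 186.4 in hrde-1, a ratio of 95.7 with an exact 95% interval of 17.0 to 3801. The interval was computed for whole, separate reads, so it is not exact if reads were split. Both regions may rest on the same reads. Region D was called without any single library, and region C was lost without hrde-1 cytoplasm of generation 3, with an adjusted p of 0.0567 in limma.

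GRH windows had the smaller differences. Of the 215 GRH windows, 34 passed the minimum mean, and 6 of these were higher and 0 lower, with a median log2 difference of 1.15. The means over the 34 windows were 11.5 and 14.9 in N2 and 40.5 and 31.8 in hrde-1. Of the 5 tested windows with both marks 4 were higher, and of the 29 with GRH alone 2 were higher, with a median of 1.04. In 23 of the 34 both hrde-1 libraries lay above both N2 libraries, beside 33.8% of all tested windows, and in 1 below, beside 9.75%. Only 19 GRH windows had a mean of at least 10 in N2 cytoplasm. With windows chosen that way, 0 of the 19 were called, with a median of 0.75 beside 0.18 over all windows so chosen. The rest of the 34 passed through hrde-1, so their direction was tied to the choice of windows. Of the 181 GRH windows below the minimum mean, 53 were at the floor in all 4 cytoplasmic libraries.

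Among the GRH windows, regions J and K were the named regions of a single window. Another single window with both marks was called but not named, on chromosome I from 2634001 to 2635000. It was at the floor in both N2 libraries and had 30.0 and 25.4 in hrde-1, with an adjusted p of 0.00954 in limma. Region J, on chromosome IV from 8397001 to 8398000 and marked GRH alone, had 4.68 and 3.25 in N2 and 103.0 and 41.6 in hrde-1. The 2 hrde-1 generations differed by more than the N2 values did, and the ratio of reads was 18.8, with an exact 95% interval of 5.02 to 158. Its log2 difference was 3.76 ± 0.60 (SE), with an adjusted p of 0.00498 in limma that became 0.0908 without hrde-1 cytoplasm of generation 3. Region K, on chromosome II from 12283001 to 12284000 and carrying both marks, was at the floor in N2 and had 78.6 and 57.7 in hrde-1, at least 11.5-fold higher. Its adjusted p in limma was 0.00734, and the highest without a single library was 0.111. It was lost without N2 cytoplasm of generation 3 and without either hrde-1 cytoplasmic library.

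Of the 49 higher windows 33 had neither mark, of 15265 unmarked windows tested. Several had the same course as the marked regions. Region F, a single window on chromosome V from 20299001 to 20300000, was at the floor in both N2 libraries and had 111.4 and 79.6 in hrde-1. This was at least 16.1-fold higher, with a log2 difference of 6.43 ± 0.81 (SE) and an adjusted p of 0.000992 in limma, and it was called without any single library. Region F was unmarked but lay directly beside a GRTS window, from 20298001 to 20299000. That window was at the floor in N2, had 15.1 and 12.8 in hrde-1, and was under the minimum mean. Region E, 3 windows on chromosome X from 16833001 to 16836000, was also at the floor in N2 and had 33.5 and 31.2 in hrde-1, again at least 16.1-fold higher. It was lost without either hrde-1 cytoplasmic library, with an adjusted p of up to 0.0905 in limma.

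Other unmarked regions held a few N2 reads. Region H, on chromosome V from 15579001 to 15581000, had 0.1 and 3.25 in N2 and 57.6 and 34.1 in hrde-1, a read ratio of 23.4 (exact 95% interval 6.30 to 196). Region N, on chromosome II from 1847001 to 1848000, had 0.1 and 3.25 in N2 and 52.5 and 56.5 in hrde-1, a ratio of 26.8 (4.60 to 1077). Region I, on chromosome V from 10853001 to 10856000, had 2.39 and 4.82 in N2 and 51.5 and 42.7 in hrde-1, a ratio of 11.8 (4.47 to 44.4). In these 3 regions the genotypes lay far apart in both generations, but the intervals are wide because N2 held 1 to 4 reads. Region I was called without any single library.

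Region G, 2 windows on chromosome X from 4712001 to 4714000, had 0.1 and 7.97 in N2 and 47.8 and 50.8 in hrde-1. Its read ratio was 9.78 (exact 95% interval 4.05 to 30.8), and it was called without 7 of the 12 libraries in turn. Without N2 cytoplasm of generation 3, either hrde-1 cytoplasmic library or either hrde-1 nuclear library it was lost, with an adjusted p of up to 0.167 in limma. Region H was lost without N2 or hrde-1 cytoplasm of generation 3, at up to 0.0675, and region N without those libraries or hrde-1 cytoplasm of generation 4, at up to 0.0624. The 20 higher regions outside the 14 with the largest gains had smaller gains, and 3 of them were called in every fit that left out 1 library and still tested them.

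**Figure D3:**
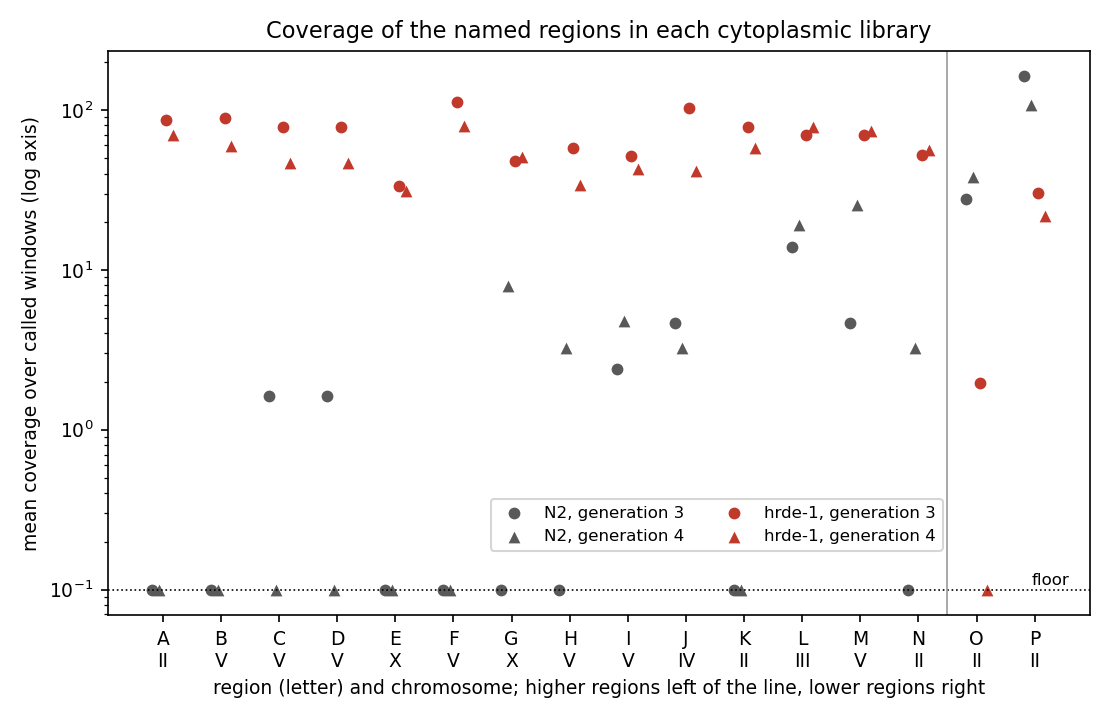
Mean coverage over the called windows of regions A to P (horizontal axis, with the chromosome) in each of the 4 cytoplasmic libraries (vertical, log axis); grey is N2, red hrde-1, circles generation 3, triangles generation 4, and the dotted line is the floor of 0.1. Regions A to N are higher in hrde-1, and regions A, B, E, F and K sit at the floor in both N2 libraries; regions O and P are lower.

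Both N2 cytoplasmic libraries were at the floor in 30 tested windows. Of these, 26 were called higher, beside 0.32% of all tested windows. A mark was carried by 11 of them, whereas 15265 of the 15310 tested windows carried none. No tested window had both hrde-1 cytoplasmic libraries at the floor. The hrde-1 libraries were deeper, and these counts were not adjusted for depth. With N2 at the floor, a window could pass the minimum mean only through hrde-1. The direction of the 30 windows, and part of the size of their bounds, were thus fixed by the choice of windows. The mean of the hrde-1 libraries in the 30 windows ranged from 21.2 to 125.1, with a median of 34.6. Against 3 reads over the N2 libraries, the windows were at least 3.52-fold to 21.2-fold higher, with a median bound of 5.79-fold. In whole RNA, which is deeper, the median of the 30 windows was 0.575 in N2 and 28.0 in hrde-1, and in 28 of them both hrde-1 libraries lay above both N2 libraries, as in 14% of all tested windows. In those 28 windows the genotypes thus had the same order in the deeper libraries.

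The next comparison asked how far the cytoplasmic differences were found in the other fractions. Of the 49 windows higher in cytoplasm, 32 were also higher in whole RNA in the same fit, in which 0.287% of all windows were, and 23 in nuclear RNA, in which 0.163% were. Of all windows, 0.0457% were lower in whole RNA and 0.0131% in nuclear RNA, which made 0.333% and 0.176% in either direction. The 16 marked windows were higher in whole RNA in 16 cases and in nuclear RNA in 15. The exception was the GRTS and GRH window of region A from 13249001 to 13250000, with a nuclear difference of 1.60 and an adjusted p of 0.886 in limma. Of the 33 unmarked windows 16 were higher in whole RNA and 8 in nuclear RNA.

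In whole RNA, region A had 0.45 and 2.21 in N2 against 51.4 and 56.5 in hrde-1. Its nuclear values were 1.72 and 3.00 in N2 against 42.3 and 43.0 in hrde-1. The region was thus higher in hrde-1 in all 3 fractions, without overlap. Region J was higher in the same way, with 9.87 and 8.52 in N2 and 145.2 and 141.2 in hrde-1 in whole RNA. Region H was higher in whole RNA, at 3.94 and 4.91 in N2 against 50.7 and 54.9 in hrde-1, while its nuclear values of 16.0 and 13.0 in N2 and 29.5 and 33.9 in hrde-1 gave no call, with adjusted p values of 0.886 and 0.907 in limma for its 2 windows.

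In 34 of the 49 windows both hrde-1 libraries lay above both N2 libraries in whole and in nuclear RNA, and these held all 16 marked windows. Across all tested windows, 14% were separated in that direction in whole RNA and 11.1% in nuclear RNA. The median log2 difference of the 34 windows was 4.95 in cytoplasm, 4.25 in whole RNA and 3.55 in nuclear RNA. A further 6 windows were separated in 1 of the other fractions. The windows had been chosen by their cytoplasmic values, so these counts describe them and are no separate support for the calls.

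The remaining 9 windows, all unmarked, were separated upward in neither other fraction. Their median coverage was 2.39 in N2 cytoplasm and 30.9 in hrde-1 cytoplasm. The whole RNA median was 22.8 in N2 against 18.8 in hrde-1, and the nuclear median 17.7 against 18.3. By these medians N2 cytoplasm was the 1 group in which the windows were low, and it held 0 to 9 reads in each of them, against 25 to 69 in hrde-1. Their median log2 difference was 3.67 in cytoplasm, -0.37 in whole RNA and -0.22 in nuclear RNA. The shallow depth of N2 cytoplasm, and its larger shares in the windows of highest coverage, moved with this pattern. Their part in it was not tested.

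Regions L and M were the best covered of the windows without a rise in whole RNA. Region L, on chromosome III from 12883001 to 12884000, had 13.8 and 19.0 in N2 cytoplasm and 69.3 and 78.4 in hrde-1 cytoplasm, a read ratio of 4.06 (exact 95% interval 2.02 to 9.24). In whole RNA it had 67.1 and 71.1 in N2 and 64.4 and 52.1 in hrde-1. Its nuclear values were 62.6 and 51.6 in N2 and 71.4 and 84.3 in hrde-1, so it was not 1 of the 9 windows above. That separation, found in 11.1% of all tested windows, gave no call, with an adjusted p of 0.964 in limma. Region M, on chromosome V from 13174001 to 13175000, had 4.68 and 25.3 in N2 cytoplasm and 69.3 and 73.8 in hrde-1 cytoplasm, a ratio of 3.95 (1.96 to 8.99). Its N2 values differed by more than those of region L, and its whole RNA values were 64.3 and 86.8 in N2 and 52.1 and 55.8 in hrde-1. Both were lost without N2 cytoplasm of generation 3 or either hrde-1 cytoplasmic library, with an adjusted p in limma of up to 0.134 for L and 0.584 for M. Region M was also lost under median scaling.

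**Figure D4:**
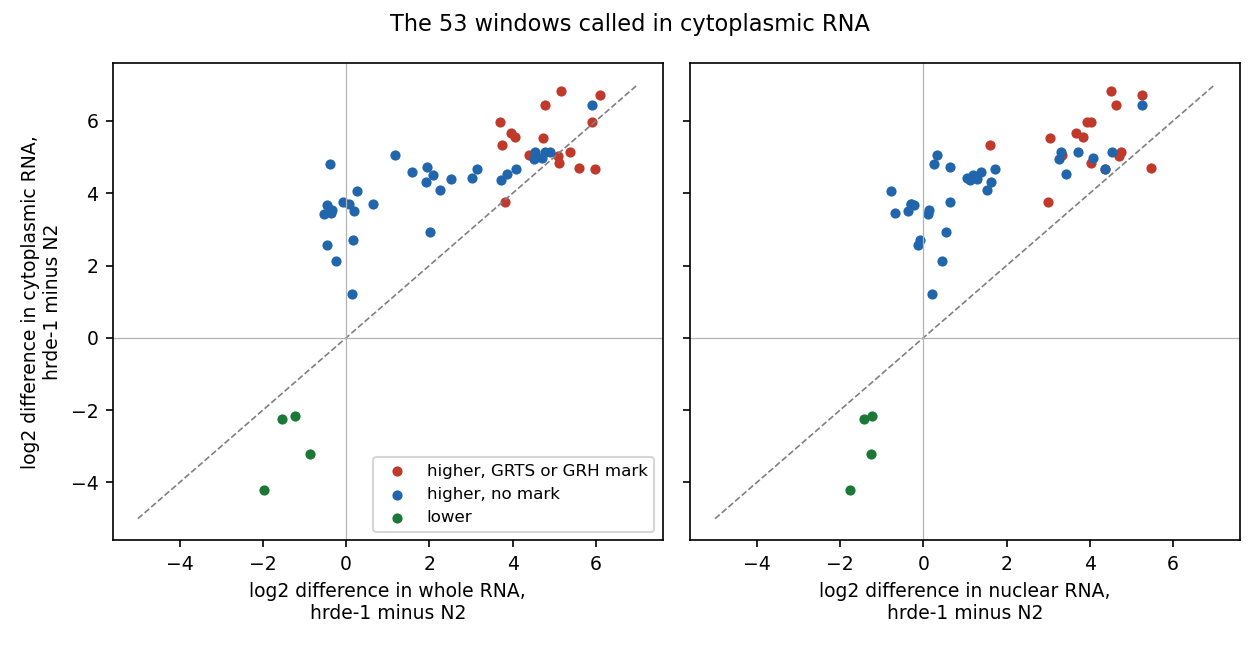
The 53 windows called in cytoplasmic RNA by their log2 difference, hrde-1 minus N2, in cytoplasm (vertical) and in whole RNA (left, horizontal) or nuclear RNA (right, horizontal); red is higher with a GRTS or GRH mark, blue higher with no mark, green lower, and the dashed line marks equal differences. The marked windows lie at 3.69 or more in whole RNA, while a cluster of unmarked windows lies near 0 in both other fractions.

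A test of the difference between fractions called no window as fitted here. For cytoplasm against whole RNA the lowest adjusted p in limma was 0.0778, with 0 windows called and 1824 at an unadjusted p under 0.05. With generation as a replicate block 1 window was called, that on chromosome III from 9830001 to 9831000, at an adjusted p of 0.0448 in limma. It is 1 of the 9 windows above. For cytoplasm against nuclear RNA it was 0.193, with 0 called and 1794 at an unadjusted p under 0.05. In the fit reported here, the rise of the 9 windows in cytoplasm was therefore not shown to differ from their course in the other fractions. The median of the difference between fractions over all windows was 0.37 against whole RNA and 0.41 against nuclear RNA.

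The window nearest to a call was on chromosome III from 9830001 to 9831000. It was at the floor in both N2 cytoplasmic libraries and had 22.5 and 39.3 in hrde-1 cytoplasm, with 22.4 and 21.8 in N2 whole RNA and 12.4 and 22.4 in hrde-1 whole RNA. The cytoplasmic difference exceeded that in whole RNA by 5.19 ± 0.82 (SE), with an adjusted p of 0.0778 in limma, and that in nuclear RNA by 4.56, with an adjusted p of 0.193. Regions L and M followed for whole RNA, at 2.37 with an adjusted p of 0.193 and at 3.03 with 0.199 in limma. For nuclear RNA they were a window of region I on chromosome V from 10855001 to 10856000, at 4.71, and a window on chromosome II from 5588001 to 5589000, at 4.83, each with an adjusted p of 0.193 in limma.

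In the other direction, the lowest p for whole RNA was that of the first window of region P, at -2.34 with an adjusted p of 0.280 in limma. It was followed by the windows of chromosome X from 3793001 to 3794000, at -1.46, and from 13038001 to 13039000, at -1.46, both with an adjusted p of 0.300 in limma. The first had 549 and 570 in N2 cytoplasm and 268 and 316 in hrde-1 cytoplasm, but 97.8 and 96.7 in N2 whole RNA and 121 and 161 in hrde-1 whole RNA. For nuclear RNA the lowest p values were those of windows on chromosome V from 8235001 to 8236000, at -1.65, on chromosome IV from 2802001 to 2803000, at -1.43, and on chromosome X from 11095001 to 11096000, at -1.54, with adjusted p values of 0.255 to 0.278 in limma. In N2, these 5 windows outside region P were 5.29 to 11.9 times as high in cytoplasm as in the fraction it was compared with.

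The 4 lower windows lay close together on chromosome II. Region P, 3 windows from 8787001 to 8790000, had 161.9 and 107.1 in N2 cytoplasm and 30.0 and 21.6 in hrde-1 cytoplasm, or 134.5 ± 38.8 against 25.8 ± 5.96 (SD, n = 2). The ratio of reads was 0.188, with an exact 95% interval of 0.143 to 0.246. The log2 differences of its windows were -3.21, -2.15 and -2.25, with adjusted p values of 0.00281, 0.00281 and 0.0401 in limma. The first of them, at 7.58 and 7.01 in hrde-1, passed the minimum mean only through N2, which tied its direction to that choice. In all 3 windows both hrde-1 libraries also lay below both N2 libraries in whole RNA, as in 21.1% of all tested windows, and in nuclear RNA, as in 23.1%, with differences of -0.88 to -1.54 in whole RNA and -1.24 to -1.43 in nuclear RNA. The region was called without any single library, at adjusted p values of up to 0.0499 in limma.

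Region O, a single window from 8784001 to 8785000, had 27.6 and 37.9 in N2 and 1.97 and 0.1 in hrde-1. The window passed the minimum mean only through N2, so its direction was tied to the choice of windows. It held 18 read equivalents in N2 and 1 in hrde-1, a ratio of 0.0286 with an exact 95% interval of 0.000686 to 0.181. Its adjusted p of 0.0424 in limma was lost without 9 of the 12 libraries in turn, at up to 0.288, and without N2 cytoplasm of generation 4 the window was under the minimum mean.

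By chromosome, windows higher in hrde-1 were called at 0.179% on I, 0.427% on II, 0.0649% on III, 0.224% on IV, 0.825% on V and 0.379% on X, or 6, 11, 2, 6, 19 and 5 windows. All 4 lower windows were on II. The median difference was 0.29 to 0.35 on chromosomes I to V and -0.14 on X. On X 28.6% of 1319 windows had both hrde-1 libraries below both N2 libraries, against 7.97% of 13991 windows on the autosomes. No lower window was called on X.

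On X the difference fell with coverage up to a mean of 500. The median was 0.03 for its 595 windows with a mean of 10 to 20, -0.12 for 363 windows from 20 to 50, -0.28 for 179 windows from 50 to 100 and -0.57 for 152 windows from 100 to 500. It was -0.44 for the 30 windows at 500 and above, less far below 0 than in the class before. In the class from 100 to 500, 60.5% of X windows had hrde-1 below N2 without overlap, beside 17.3% of autosomal windows. At an unadjusted p under 0.05 in limma, 61 of the 152 X windows were lower and 0 higher. Of the 1043 autosomal windows of that class, 81 were lower and 60 higher. On the autosomes the same classes had medians of 0.41, 0.38, 0.27 and 0.05, and the class at 500 and above one of -0.16. Both generations gave this order, with a median of -0.66 in generation 3 and -0.52 in generation 4 for X windows from 100 to 500. In whole RNA the X windows of that class had a median of 0.20, and in nuclear RNA of 0.11.

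The share of called windows differed by coverage as well. The 6120 windows with a mean of 10 to 20 held 25 of the 49 higher calls, and the 5843 from 20 to 50 held 20. The 2020 windows from 50 to 100 held 4, and the 1327 windows above 100 held 0. In either direction, 0.425%, 0.359% and 0.248% were called in the classes below 100, beside 0.346% of all tested windows. The spread between N2 cytoplasmic libraries fell over the same classes, with an SD on the log2 scale of 1.03 from 10 to 20 and of 0.34 at 500 and above. The 132 windows at 500 and above had a median difference of -0.31 and no call. The highest of all windows, on chromosome IV from 8264001 to 8265000, had 6239 and 5006 in N2 and 4232 and 4376 in hrde-1, a log2 difference of -0.38 with an adjusted p of 0.494 in limma. The 10 highest windows had both hrde-1 libraries below both N2 libraries, and none was called. Such separation held for 44.7% of the windows at 500 and above and for 9.75% of all tested windows. Several of the 10 were adjacent, as on chromosome IV from 8262001 to 8266000. The higher shares of X and of the top windows in N2 cytoplasm moved with these medians, and their part was not tested.

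The number of calls depended on the weights, on the libraries fitted and on their depth. Giving each group its own weight left 53 calls, and equal weights for all libraries gave 402, with 338 higher and 64 lower. In a fit of the 4 cytoplasmic libraries alone, 7 windows were called, 6 higher and 1 lower, and these lay in regions A, B, C, D, F and P. With all libraries thinned to the 190872 read equivalents of the shallowest, 13 windows were higher and 2 lower, and of the named regions A, B, C, D, F, K and P were called. Without hrde-1 cytoplasm of generation 3, 14 windows were called, without that of generation 4, 20, and without N2 cytoplasm of generation 4, 414. Regions A, B, D, F and P were called in each of these fits.

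**Figure D5:**
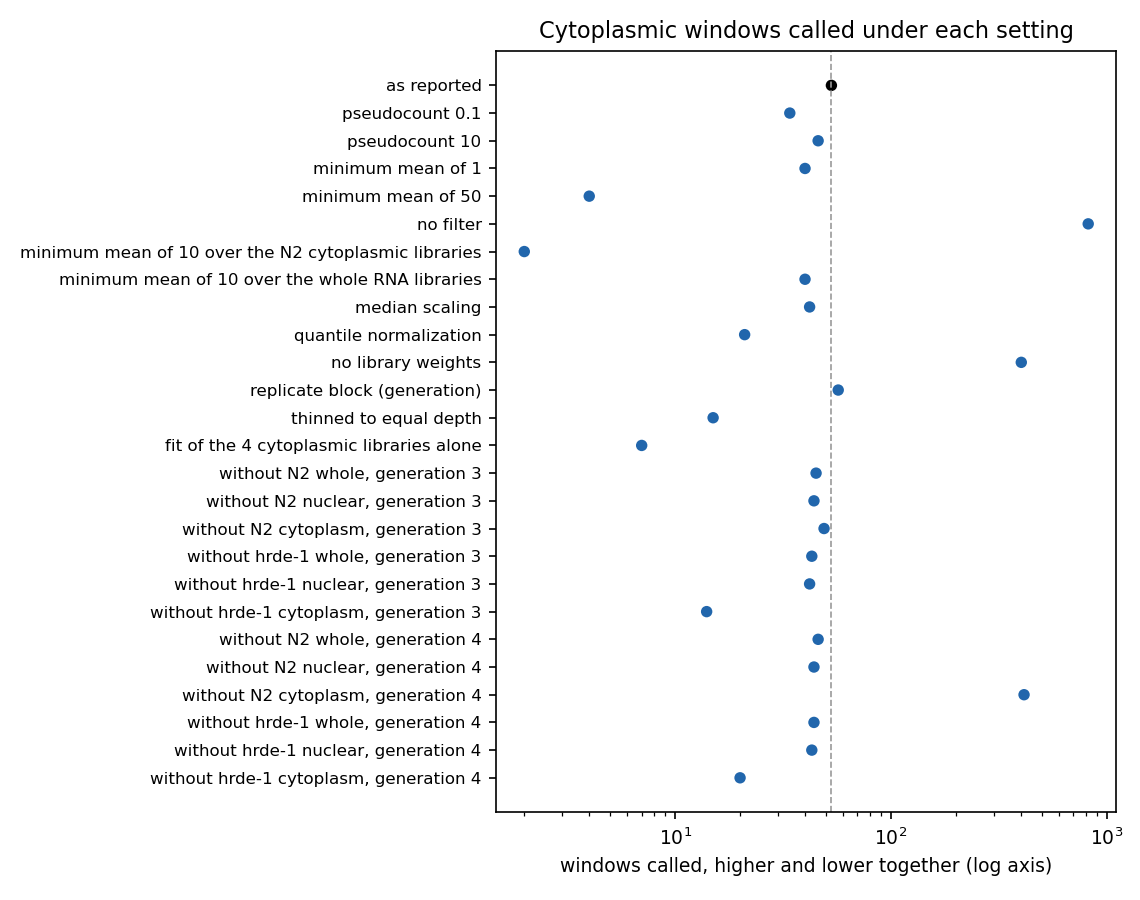
Number of windows called in cytoplasmic RNA, higher and lower together (horizontal, log axis), under each alternative setting (rows); the black point and the dashed line are the 53 windows reported, and each other point is 1 alternative. Counts range from 2 with the minimum mean taken over N2 to 821 with no minimum mean.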

How the data were processed

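The deposited values are coverage, a signal that the authors normalized, for 12 libraries in 6 groups of 2 (generations 3 and 4). Windows span 1000 bases of the 6 chromosomes, and the floor is 0.1. Bowtie 0.12.7 is named per the submitters' processing notes. Genome build, strand, scale and the handling of reads with several places are not stated, so windows have no gene names or sequence. Positions are those of the table, counted from 1. All 12 columns were used (0 left out).

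Values below 40 lay on steps, taken as 1 read, within a small tolerance for 79.8% to 89.7% of values. Read equivalents gave ratios, exact 95% intervals and bounds (3 reads over a group), which cover counting error only. No count model was run on coverage.

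Windows with a mean of at least 10 over the 4 cytoplasmic libraries were fitted on log2(coverage + 1) in limma 3.58.1 (R 4.3.3; lmFit, eBayes with trend), with all 12 libraries and weights from arrayWeights, 1 variance per group. The weight was 0.357 for N2 cytoplasm, 0.763 for hrde-1 cytoplasm and 1.09 to 1.59 for the other groups. Two-sided p-values were adjusted by Benjamini-Hochberg over 15310 windows, with 0.05 as threshold. The windows nearest the minimum mean averaged 10.0025 (13.8 and 6.40 in N2, 15.1 and 4.71 in hrde-1) and 9.9975 (4.68 and 19.0, 0.1 and 16.2). The procedure was run on simulated data with the same extra spread between libraries in every group. No simulated window was built to be at the floor in N2 alone, so the run is no check of such calls.

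Called windows up to 1 window apart were merged. The rule named the 14 higher regions with the largest summed gain, up to 10 lower regions, the 4 GRTS and the 4 unmarked regions with most windows, and the 3 windows of each sign with the lowest p for each difference between fractions. The comparison and the rule were chosen with earlier results of these data known. The labels name no separate cultures, and p-values thus reflect only how these libraries vary, which may be technical. Alternatives changed the pseudocount, minimum mean, scaling, weights, depth, block and libraries.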

Additional observations from a re-analysis of the deposited data

How the results depend on the processing

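The 53 cytoplasmic calls became 34 with a pseudocount of 0.1, 4 with a minimum mean of 50, 821 with no minimum mean (626 higher, 195 lower), 2 with the minimum taken over N2 cytoplasm, 21 with quantile normalization (16 higher, 5 lower), 402 without library weights, 15 after thinning to equal depth and 7 in the fit of the 4 cytoplasmic libraries alone. Leaving out 1 library gave 14 to 414. They were 46 with a pseudocount of 10, 40 with a minimum mean of 1, 40 with the minimum taken over whole RNA and 42 with median scaling. None of the 16 named regions changed sign under an alternative that tested it. A minimum mean of 50 or one over N2 left 12 of the 16 untested. Among the 16, region O was lost most often.

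The difference from whole RNA had 0 calls as reported, 1 with a pseudocount of 0.1, 1 without library weights, 1 with the replicate block, 486 with no minimum mean, and 0 to 237 without 1 library. The difference from nuclear RNA had 1263 calls with no minimum mean and 0 to 248 without 1 library. In both, the high end was the fit without N2 cytoplasm of generation 4. The cause of these changes was not tested.

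The GRTS median of 5.23 was 7.46 with a pseudocount of 0.1, 2.46 with 10, 2.26 with a minimum mean of 1, 6.20 with 50, 0.81 with none, 0.39 with the minimum over N2 (1 window), 3.63 with that over whole RNA, 4.95 with median scaling, 3.59 with quantile normalization and 5.03 to 5.40 without 1 cytoplasmic library. The 14 GRTS calls became 2 with a minimum mean of 50, 39 with none, 0 with that over N2, 8 with quantile normalization and 4 to 14 without 1 cytoplasmic library. The 6 GRH calls became 3 with a pseudocount of 0.1, 1 with a minimum mean of 50, 14 with none, 0 with that over N2, 3 with quantile normalization and 0 to 8 without 1 cytoplasmic library. The GRH median of 1.15 was 6.82 with a minimum mean of 50, where 1 window was left.

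Deviations of the generations were little correlated between N2 and hrde-1 cytoplasm (0.03; 0.03 to 0.17 over the 15 pairs of groups), so generation was not taken as pairing the samples. With generation as a replicate block, 57 windows were called (53 higher, 4 lower), among them all 49 and all 4 of those reported.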
